A study of Rattus norvegicus with 6 samples.

Results

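The regions described here are stretches of the rat genome from which RNA was assembled although no named gene lies there. They were chosen from the deposited transcript tables as transcripts without a gene name, with at least 1 FPKM (the number of fragments divided by the length of the transcript and by the mapped fragments of the library), whose position overlapped no named transcript. Overlapping transcripts were merged across samples, and a region was kept if 2 or more samples of 1 group held it. Of 2861 merged loci, 1531 (53.5%) were kept. By the samples that held them, 566 regions were SCP only, 267 were RSC only and 698 were shared, where "only" means that no sample of the other group had such a transcript.

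The study compared Schwann cells from a developing nerve with those from an injured adult nerve, by RNA-seq of 3 samples per group from LEWIS rats. The labels give the genotype as wild type, whereas the study's methods describe grafted cells, prepared by the same protocol, from transgenic LEWIS rats that expressed a red fluorescent protein in all tissues. Schwann cell precursors (SCPs) came from the sciatic nerve and brachial plexus at embryonic day 14, without treatment. Repair Schwann cells (RSCs) came from the distal segment of the sciatic nerve of rats 10 weeks old, 1 week after the nerve was cut. The study's reporting summary describes separately prepared sets of cells for each group but not how many animals each set pooled, so p-values measure the spread between these preparations. RNA of a mixed preparation cannot tell fewer cells of a type from less RNA per cell.

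An assembler such as Cufflinks joins overlapping reads into transcripts and gives a name only where the transcript meets an annotated gene. RNA found elsewhere can be a long noncoding RNA, the primary transcript of a microRNA, an unannotated end of a neighbouring gene, RNA of a processed pseudogene, or reads placed on the wrong copy of a repeated sequence. MicroRNAs are short RNAs cut from such primary transcripts, and bases 2 to 8 of the mature form, the seed, pair with target messages.

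A microRNA gene was nearest to, or within 10 kb of, 15 of the regions (6 SCP only, 1 RSC only and 8 shared), and 13 of the 14 microRNA symbols looked up had a RefSeq entry (GRCr8). A mature sequence of each microRNA that flanks a region with values below is printed 5′ to 3′ with the seed in capitals. Not all are near: Mir370 and Mir379 lay 36017 and 56383 bases from their region. Mir145 lay 49577 bases from its region, which is nearer to Csnk1a1. The libraries did not measure mature microRNAs. The let-7d and let-7i forms share a seed, and the other seeds differ.
rno-miR-370-3p: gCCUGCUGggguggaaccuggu
rno-miR-379-5p: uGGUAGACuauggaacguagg
rno-let-7d-5p: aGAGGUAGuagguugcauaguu
rno-let-7i-5p: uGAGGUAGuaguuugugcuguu
rno-miR-145-5p: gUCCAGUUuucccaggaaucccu
rno-miR-22-3p: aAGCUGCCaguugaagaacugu
rno-miR-568: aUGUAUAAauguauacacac
rno-miR-196a-5p: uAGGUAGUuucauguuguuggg
rno-miR-6326: cUGGUCUGuaaagggacacagca
rno-miR-384-5p: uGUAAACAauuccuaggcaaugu

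The labelled cell type was checked against marker genes. Sox10, the transcription factor that marks the Schwann lineage, lay between 143 and 181 FPKM in all 6 samples. Leukocyte markers (5 of 7 higher in RSCs, with Cd3e listed at 0 in every SCP table) summed to 11.5 to 31.5 FPKM in SCPs and 2007 to 2447 in RSCs, and fibroblast markers (5 of 6 higher in RSCs) to 641 to 1020 and 5360 to 8011. Erythroid markers (4 of 5 higher in SCPs) summed to 16706 to 74702 FPKM in SCPs and 0 to 1.80 in RSCs, with Hbe1 and Hbz listed at 0 in every RSC sample. Skeletal muscle markers (4 of 5 higher in SCPs) summed to 46.7 to 201 FPKM and 0.220 to 2.27. The part of these other cells in the results below was not tested.

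Unnamed transcripts outside named genes were more numerous in the SCP tables, with 1677, 1764 and 1573, than in the RSC tables, with 1146, 1216 and 1158. The groups did not overlap (1671 ± 95.6 against 1173 ± 37.4, SD, n = 3 each), and an exact two-sided permutation test gave p = 0.1. That is the smallest value that 3 against 3 samples allow, so the test cannot decide whether the groups differ. The count was taken before regions were merged and classed, but it rests on the FPKM minimum of the rule. Relative depth, read from the coverage per FPKM, moved with these counts, being 0.93, 1.00 and 0.88 of the highest sample in SCPs and 0.80, 0.84 and 0.79 in RSCs. As a share of all unnamed transcripts of at least 1 FPKM, those outside named genes made up 14.6% to 15.4% in SCPs and 13.5% to 14.0% in RSCs.

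The FPKM of the kept regions was dominated by very short transcripts. Between 8 and 16 transcripts per sample were shorter than 150 bases, and they held 79.9%, 70.9% and 52.1% of the FPKM in SCPs and 69.0%, 43.7% and 46.6% in RSCs. SCP 1 had the highest sum over all kept regions, 123502 FPKM, against 85377 in SCP 2 and 42729 in SCP 3. The RSC sums were 52612, 30679 and 33812, so the groups overlapped. Transcripts of 300 bases or more summed to 11523 to 11913 FPKM in SCPs and 11746 to 12124 in RSCs. These sums were 11685 ± 203 and 11942 ± 189 (SD, n = 3 each), a ratio of 0.978, given without a test since the rule used these values.

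**Figure D1:**
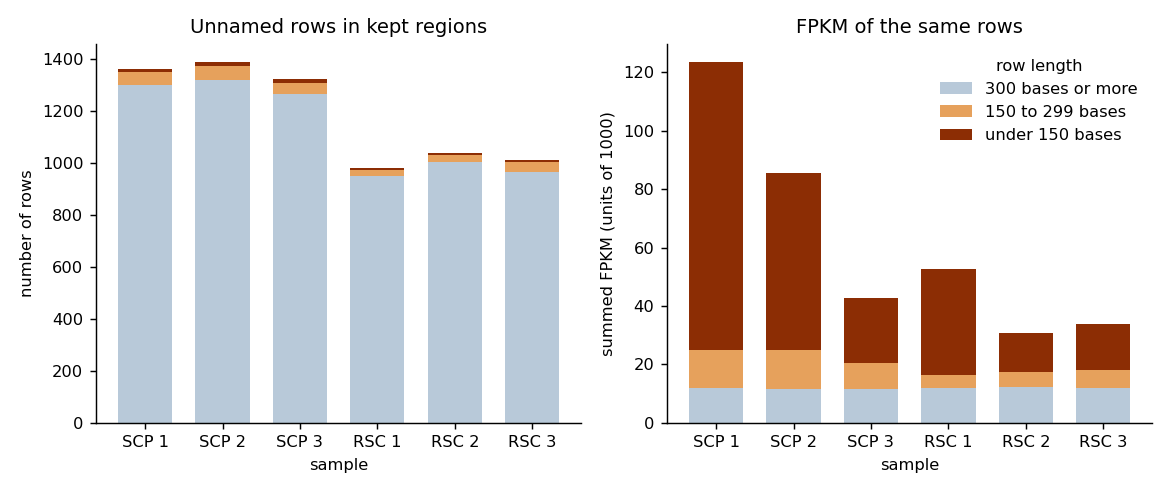
Number (left) and summed FPKM in units of 1000 (right) of the unnamed transcripts in the kept regions, for each of the 3 SCP and 3 RSC samples, stacked by transcript length. Transcripts under 150 bases (8 to 16 per sample) are hardly visible at left and fill most of the bar of SCP 1 at right, whereas transcripts of 300 bases or more reach 11523 to 12124 FPKM in every sample.

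The regions were compact and mostly unspliced. Their median span was 1305 bases (range 105 to 262409), and 100 (6.53%) held a transcript with more than 1 exon in some sample. The median of the mean FPKM per region was 6.88, with a missing transcript counted as 0, and 39 regions exceeded 100. Of those, 28 spanned fewer than 300 bases. All 45 regions under 300 bases had a mean of at least 19.7 FPKM, with a median of 219, while medians in the longer classes of span were 5.79 to 13.7. FPKM divides by length, so in a short transcript few fragments make a high value. At the threshold of the rule, the lowest transcript kept had 1.05 FPKM (RSC 2), and the single transcript outside named genes below 1 had 0.605 FPKM (RSC 2).

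**Figure D2:**
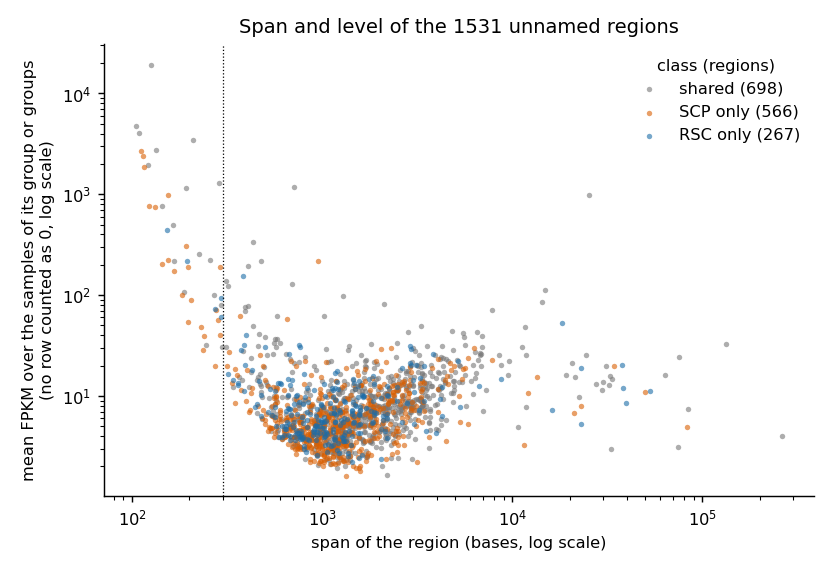
Span (x axis, bases, log scale) and mean FPKM (y axis, log scale, no transcript counted as 0) of each of the 1531 regions, coloured by class. The dotted line marks 300 bases. The 45 regions to its left lie at or above 19.7 FPKM, and most others lie between 2 and 50 FPKM.

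The highest region of all spanned 126 bases on chromosome 5 from 161924527 to 161924652 of rn6. It had 42164, 25545 and 8944 FPKM in SCPs and 22605, 8254 and 8665 in RSCs. The groups overlapped, and replicate 1 was highest in both. The nearest named gene, Pdpn, a membrane glycoprotein of lymphatic and other cells, lay 22484 bases away. In the newer rat assembly GRCr8 the interval between the same flanking genes holds Rps20-ps11, a pseudogene of a ribosomal protein, among 3 genes that the deposited tables do not name.

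A second short region, of 105 bases on chromosome 10 from 72282873 to 72282977, had 13913, 6347 and 2139 FPKM in SCPs and 3152, 1219 and 1809 in RSCs. It lies between Car4, a carbonic anhydrase, and Usp32, a deubiquitinase, where GRCr8 places only 1 gene, the ribosomal protein pseudogene Rpl37a-ps3. Regions of 109 and 134 bases on chromosome 16 had 10022, 6635 and 1762 FPKM and 7133, 4635 and 1777 FPKM in SCPs. In RSCs they had 3443, 1286 and 1230 FPKM and 1570, 628 and 588 FPKM. In each of these short regions SCP 1 was the highest sample and RSC 1 the highest RSC sample, as in the sums over transcripts under 150 bases. A shared region of 210 bases on chromosome 14 differed, with SCP 2 highest. It had 5161, 5562 and 3737 FPKM in SCPs and 2427, 2121 and 1606 in RSCs, without overlap.

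Short regions also led the regions of 1 class. The 6 SCP only regions with the highest mean spanned 112 to 155 bases, and the first, on chromosome 8 from 129371874 to 129371985, had 2656, 4375 and 1060 FPKM. Among RSC only regions the first, on chromosome 1 from 70386619 to 70386770, had 774, 326 and 235 FPKM and lay 51005 bases from Olr3, an olfactory receptor gene. Of the regions under 300 bases whose flanking genes could be placed in GRCr8, 23 of 38 (60.5%) had a pseudogene between the flanks. The share was 25.7% to 35% in the longer classes of span. The short regions also lay farther from genes, with a median distance of 8266 bases and 48.9% beyond 10 kb.

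Over all regions, 1448 had flanking genes that GRCr8 holds on 1 chromosome in usable order, and 811 of these (56%) had at least 1 gene between the flanks that the deposited tables do not name. In 309 regions there was exactly 1 such gene, a long noncoding RNA in 133, a pseudogene in 75 and a protein coding gene in 49. The shares with any such gene were 59.7% for SCP only, 53.4% for RSC only and 54.0% for shared regions. A gene between the flanks is a neighbour in order only, since positions in GRCr8 and rn6 cannot be compared here.

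Regions of 1 class were often seen in some of the samples alone. All 3 samples of the group held 243 of the 566 SCP only and 105 of the 267 RSC only regions, and 240 of the 698 shared regions were held by all 6 samples. Where all 3 samples of a group held a region, the median coefficient of variation was 31.9% in SCPs (638 regions) and 36.0% in RSCs (458 regions). The classes depended on the number of libraries, since leaving out SCP 1, 2 or 3 left 362, 329 or 414 SCP only regions, and leaving out RSC 1, 2 or 3 left 170, 163 or 160 RSC only regions.

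Being found in 1 group did not always mean that the other group lacked RNA there. In 105 of the 267 RSC only regions (39.3%) and in 86 of the 566 SCP only regions (15.2%), a sample of the other group had an unnamed transcript over the region. In 104 and 85 of them that transcript reached into a named gene and so fell outside the rule. No unnamed transcript of any kind in the other group was found for 162 RSC only and 480 SCP only regions. For example, 7 SCP only regions lay nearest to Lrp11, a receptor-related membrane protein, and in each of the 3 RSC samples a longer unnamed transcript covered their position. The regions with the lowest means had 2.72 and 2.15 FPKM in 2 SCP samples (SCP only), 3.98 and 2.60 in 2 RSC samples (RSC only), and 4.2 and 2.80 in SCP 1 and 2 with 2.80 in RSC 3 (shared).

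Most regions lay close to a named gene. The median distance to the nearest gene was 1324 bases for SCP only, 765 bases for RSC only and 680 bases for shared regions, and 90.2% of all regions lay within 10 kb. Distances over 100 kb were found for 23 regions. The farthest lay on chromosome 4 from 53632021 to 53632669, 841993 bases from Grm8, a glutamate receptor. It had 9.39 and 7.53 FPKM in SCP 1 and 2 and 6.05, 5.46 and 11.4 FPKM in RSCs. The regions were spread over chromosomes 1 to 20 and X, with chromosome 1 holding 16.9% of them and 13.2% of the named symbols.

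The named genes nearest to the regions were tested between the groups, and the rule did not use their values. A region that is an unannotated end of its nearest gene would nonetheless share the gene's change by construction. Which regions are such ends was not tested, so the shares below are not independent of the classes. Across the 13003 genes tested with limma on log2(FPKM + 1), 40.5% were called at an unadjusted p under 0.01, with 22.4% higher in SCPs and 18.1% higher in RSCs. Of the 356 tested genes nearest to SCP only regions, 134 (37.6%) had higher values in SCPs and 22 (6.18%) in RSCs. Of the 174 nearest to RSC only regions, 66 (37.9%) had higher values in RSCs and 15 (8.62%) in SCPs. Of the 501 nearest to shared regions, 64 (12.8%) were higher in SCPs and 52 (10.4%) in RSCs, and 76.8% had no call against 59.5% of all genes tested. At an adjusted p under 0.01 (limma), 101 genes (28.4%) beside SCP only regions were higher in SCPs and 59 (33.9%) beside RSC only regions higher in RSCs, against 16.6% and 15% of all genes tested. The median log2 fold change (RSC minus SCP) was -0.73 for SCP only, 0.84 for RSC only and -0.00077 for shared regions, and -0.17 over all genes tested.

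The share in the direction of the class varied with distance, and these differences were not tested. For SCP only regions, 43.2% of nearest genes within 1 kb, 33.1% of those from 1 to 10 kb and 23.1% of those beyond 10 kb (6 of 26) were higher in SCPs. For RSC only regions, 35.6%, 48.0% and 21.4% (3 of 14) were higher in RSCs. The shares beyond 10 kb rest on few genes and lay near those of all genes tested (22.4% in SCPs and 18.1% in RSCs). A gene's own FPKM leaves out unnamed transcripts that overlap it. With those added, an alternative chosen after seeing the data, the shares in the class direction were 58.4% and 50.2%, and those of all genes tested were 32.9% and 21.9%. After median-of-ratios scaling, which moved the median of all genes to 0.02, 16.8% of all genes were higher in SCPs and 21.4% in RSCs, and the class shares were 31.1% and 38.1%.

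**Figure D3:**
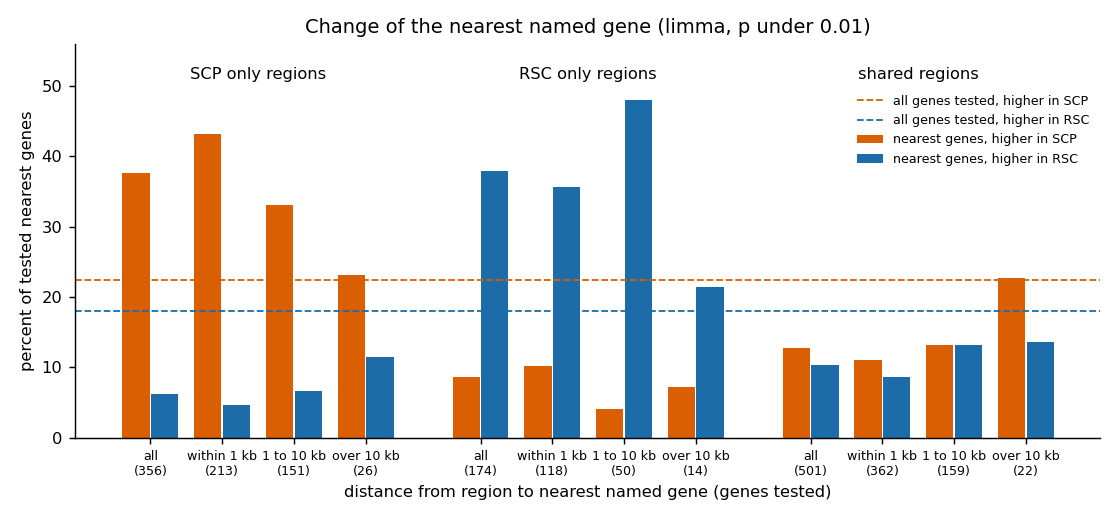
Percent of tested nearest genes that were higher in SCPs (orange) or in RSCs (blue) at p under 0.01 by limma, for each class of region and distance, with the number of genes tested in parentheses. Dashed lines mark the shares over all 13003 genes tested (22.4% and 18.1%). SCP only regions show taller orange bars and RSC only regions taller blue bars, and the bars beyond 10 kb rest on 14 to 26 genes.

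Hox genes, which set position along the body axis, were nearest to 7 SCP only regions and to no RSC only or shared region. They made up 1.30% of the genes nearest to SCP only regions and 0.112% of all named symbols. The highest lay on chromosome 10 from 84140944 to 84147237, between Hoxb7 and Hoxb6, where GRCr8 places the long noncoding RNA Hoxb5os. It had 10.9, 57.8 and 20.4 FPKM in SCPs, and no RSC sample had a transcript there. Hoxb6 itself had 24.6, 23.0 and 22.7 FPKM in SCPs and 1.29, 1.65 and 1.5 in RSCs, with no overlap (log2 fold change -3.31, standard error 0.15, adjusted p = 3.8e-05). Of the 5 Hox genes tested among the 6 nearest, 4 (Hoxb6, Hoxc10, Hoxc4 and Hoxc5) were higher in SCPs. Over all genes tested the share was 22.4%. Hoxb9 (68.9, 58.4 and 0 FPKM against 0.281, 1.29 and 1.10) had an adjusted p of 0.18, and a region 160 bases from it had 9.57 and 18.4 FPKM in SCP 2 and 3.

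The Hoxc cluster held 5 of these regions on chromosome 7. A region from 144643665 to 144645987, 620 bases from Hoxc4, had 12.2, 12 and 2.95 FPKM in SCPs. A region 2468 bases from Hoxc10 had 5.89, 6.15 and 4.07 FPKM in the same samples. Hoxc10 had 41.6, 43.3 and 26.8 FPKM in SCPs and 2.40, 1.64 and 2.44 in RSCs (log2 fold change -3.58, standard error 0.24, adjusted p = 0.00013). SCPs came from fore and hind limb nerves and RSCs from the sciatic nerve alone, so nerve and stage cannot be told apart.

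Genes with names of developmental transcription factor families made up 1.52% of the genes nearest to SCP only regions (7 genes), 1.28% of those nearest to shared regions (8 genes) and 0.437% of those nearest to RSC only regions (1 gene), against 0.553% of all named symbols. Beside SCP only regions 5 of 6 tested were higher in SCPs, and beside shared regions 1 of 8, against 22.4% of all genes tested. The former included Meis2, a cofactor of Hox proteins, at 64.9, 49.1 and 37.3 FPKM in SCPs and 1.72, 1.74 and 1.74 in RSCs (log2 fold change -4.20, standard error 0.22, adjusted p = 6.2e-05). The region beside it had 8.0 and 4.50 FPKM in SCP 1 and 2. Among these names, Foxred2 is an enzyme and no transcription factor. A region 165140 bases from Irx4, a homeobox gene, was spliced in all 3 SCP samples and had 9.39, 8.36 and 12.4 FPKM.

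Axon guidance genes lay beside regions of each class. They made up 1.08% of the genes nearest to SCP only regions, 1.75% for RSC only and 0.482% for shared regions, against 0.265% of all named symbols. Sema3d, a secreted semaphorin that steers growing axons, had 9.61, 12 and 14.2 FPKM in SCPs and 0.487, 0.282 and 0.811 in RSCs (log2 fold change -3.08, standard error 0.24, adjusted p = 0.00024). An SCP only region 96 bases from it, on chromosome 4 from 19222734 to 19224281, had 8.68, 9.88 and 30.2 FPKM. Ntng2, a membrane-bound netrin-like protein, ran the other way, with 0.0911, 0.255 and 0.288 FPKM in SCPs and 7.67, 13.4 and 14.1 in RSCs (log2 fold change 3.35, standard error 0.28, adjusted p = 0.00030). The RSC only region 306 bases from it, on chromosome 3 from 7741822 to 7742210, had 25.1, 34.4 and 36.3 FPKM. Over the list, 3 of 4 tested genes beside SCP only regions were higher in SCPs. Beside RSC only regions 1 of 3 was higher in RSCs and 1, Sema3g, higher in SCPs, and in SCPs an unnamed transcript of up to 23.0 FPKM covered the Sema3g region. Beside shared regions 1 of 2 tested was higher in each group.

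Growth factor genes lay beside regions of each class, and the 2 described here were RSC only. They made up 1.75% of the genes nearest to RSC only regions, 0.649% for SCP only and 0.161% for shared regions, against 0.322% of all named symbols. Shh, a morphogen, was listed at 0 in all SCP tables, with 13, 15.6 and 12.7 FPKM in RSCs (log2 fold change 3.88, standard error 0.19, adjusted p = 4.9e-05). A region 58 bases from Shh, on chromosome 4 from 717646 to 718479, had 15.2, 8.72 and 12 FPKM in RSCs. No unnamed transcript covered it in SCPs. A region 250 bases from Cntf, a neurotrophic cytokine made by Schwann cells, had 7.10 and 7.46 FPKM in RSC 1 and 3, while in 1 SCP sample an unnamed transcript of 3.31 FPKM covered it. Cntf was higher in RSCs (0, 4.44 and 0 FPKM against 15.3, 11.7 and 15.8, adjusted p = 0.013 by limma). In the list of growth factor families, 2 of 3 tested genes beside RSC only regions were higher in RSCs and 1 of 2 beside SCP only regions was higher in SCPs. The 1 tested beside a shared region, Bmp7, was not called. Of all genes tested, 18.1% were higher in RSCs and 22.4% in SCPs.

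Immune genes were nearest to 7 RSC only, 6 shared and 1 SCP only region. They made up 3.06%, 0.963% and 0.216% of the nearest genes of these classes and 1.06% of all named symbols. Of the 5 tested beside RSC only regions, 3 were higher in RSCs and none in SCPs, and of the 4 beside shared regions 2 were higher in RSCs (at an unadjusted p under 0.01, limma). Of all genes tested, 18.1% were higher in RSCs. Il6, a cytokine of the injury response, was listed at 0 in all SCP tables, with 25.8, 15.8 and 14.3 FPKM in RSCs (adjusted p = 0.00011). The region 100 bases from it had 6.49, 9.02 and 9.81 FPKM in RSCs. A region 532 bases from Tnfrsf1b, a receptor of tumour necrosis factor, had 15.4, 5.14 and 27.2 FPKM, and Tnfrsf1b had 0.510, 0 and 0.873 FPKM in SCPs and 12, 6.70 and 7.24 in RSCs. Leukocyte markers moved with these regions (11.5 to 31.5 FPKM in SCPs against 2007 to 2447 in RSCs), and their part was not tested.

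Runs of neighbouring regions made up some of the count. Rel, a subunit of NF-kappaB, was nearest to 4 RSC only regions within 3986 bases of it on chromosome 14, each separated from the next by less than 1 kb. They had 4.94, 6.04 and 5.60 FPKM, then 7.28, 3.42 and 6.47, and in the pair nearest to Rel only RSC 1 and 3 had a transcript (8.57 and 5.46, 9.04 and 7.63). Beside Zbtb20, a zinc finger repressor, 3 RSC only and 2 shared regions lay between Mir568 and the gene on chromosome 11. The shared region nearer to Mir568 had 4.2, 3.05 and 7.26 FPKM in SCPs and 7.72, 5.91 and 7.76 in RSCs, so that the groups overlapped. The other had 2.53 and 6.57 FPKM in SCP 1 and 2 and 45.5, 37.4 and 29.0 FPKM in RSCs. The RSC only regions had 16.3, 5.17 and 13.8, then 7.85, 5.50 and 6.84, and 6.47, 3.68 and 8.94 FPKM. Zbtb20 itself had 0.655, 0.781 and 0.816 FPKM in SCPs, was listed at 0 in every RSC table, and was too low to be tested. These values leave out unnamed transcripts, so the 0 need not mean that RNA of Zbtb20 was absent. Merging loci up to 1 kb apart gave 432 SCP only, 203 RSC only and 662 shared regions. The regions beside Rel, Zbtb20 and Il6 were singled out after their values were seen.

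Marker genes of cell types gave 2 regions. S100b, a calcium-binding protein of mature Schwann cells, had 3.21, 11.7 and 19.3 FPKM in SCPs and 924, 782 and 843 in RSCs (log2 fold change 6.37, standard error 0.56, adjusted p = 0.00037). An RSC only region 149 bases from it had 6.83 and 8.81 FPKM in RSC 1 and 3. Col1a1, the main fibrillar collagen, was likewise higher in RSCs (80.0, 194 and 226 FPKM against 1614, 2076 and 1628, log2 fold change 3.52, standard error 0.40, adjusted p = 0.00094). The region 2345 bases from it was nonetheless SCP only, with 5.91, 9.44 and 6.66 FPKM and no unnamed transcript in any RSC sample.

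The 22 and 15 nearest genes called against the class included strong changes. Cfp, the complement regulator properdin, was listed at 0 in SCPs and at 30.6, 25.4 and 42.7 FPKM in RSCs, while the region 1328 bases from it had 9.45, 23.4 and 6.98 FPKM in SCPs and none in RSCs. Clcf1, a cytokine, and Ms4a7, a macrophage membrane protein, were the other genes beside SCP only regions with large increases in RSCs (log2 fold change 3.23 and 2.73). Beside RSC only regions the largest decreases were those of Sfpq, Rbm26 and Psip1 (log2 fold change -2.05, -1.91 and -1.76), 3 genes of RNA processing and chromatin. In all 3 SCP samples an unnamed transcript, of up to 80.9 FPKM, covered the region beside Sfpq.

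The largest changes in the direction of the class belonged to Nnat, Scrg1 and Lix1 besides Meis2 for SCP only regions. Nnat, an imprinted gene of the nervous system, had 471, 383 and 337 FPKM in SCPs and 6.97, 6.42 and 4.55 in RSCs (log2 fold change -5.84, standard error 0.19, adjusted p = 2.2e-05). The second of its 2 regions had 5.96, 5.69 and 8.50 FPKM in SCPs. For RSC only regions they belonged to S100b, Itgbl1, Tmem176a and LOC100909752, with log2 fold changes of 4.4 to 6.37. The region 217 bases from Itgbl1, an integrin-like secreted protein, had 5.14, 6.27 and 5.04 FPKM in RSCs.

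**Figure D4:**
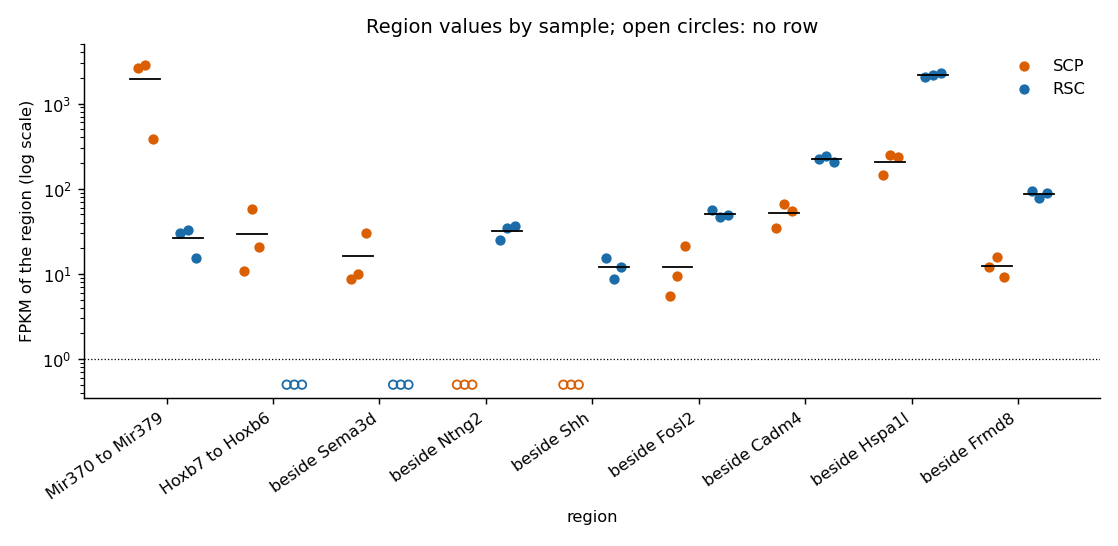
FPKM (log scale) of 9 regions in each sample, SCP in orange and RSC in blue, with black lines at group means over 3 samples. Open circles below the dotted line at 1 FPKM stand for samples without a transcript in the region. The regions beside Fosl2, Cadm4, Hspa1l and Frmd8 have all 3 RSC values above the 3 SCP values, and that between Mir370 and Mir379 has the reverse.

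The typical shared region differed little between the groups. The median log2 ratio of mean FPKM, with 1 added, was -0.11 (RSC over SCP), and 441 of 698 (63.2%) lay within 2-fold. In the 240 regions held by all 6 samples, all 3 RSC values exceeded the SCP values in 25, the reverse held in 38, and the groups overlapped in 177. The same count was not made over named genes, so whether these numbers are small or large cannot be said. Ratios over 4-fold were seen in 33 regions toward SCPs and 19 toward RSCs, but in 24 and 25 when RSC 2 was left out. Since the rule used these values, they are given without a test.

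**Figure D5:**
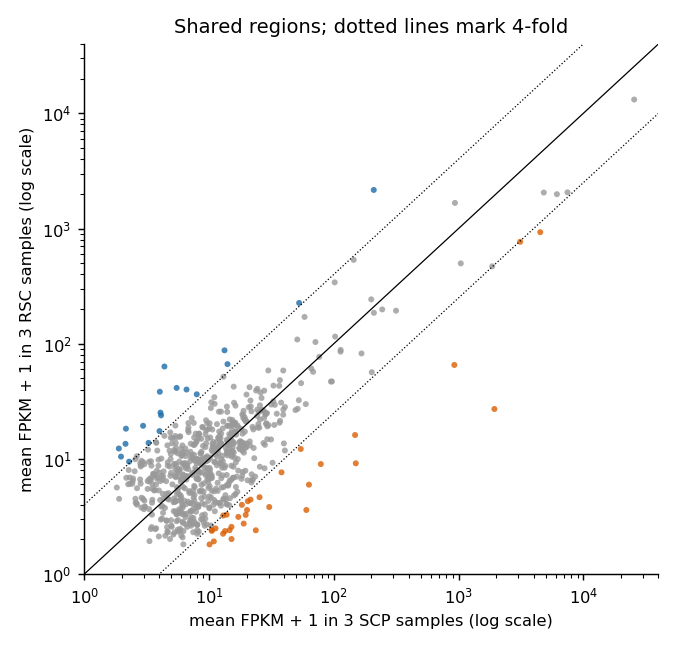
Mean FPKM + 1 of each of the 698 shared regions in 3 SCP samples (x axis) and 3 RSC samples (y axis), both on log scales, with a sample without a transcript counted as 0. The solid line marks equality and the dotted lines 4-fold. The 33 orange regions exceed 4-fold toward SCPs and the 19 blue regions toward RSCs, while 441 lie within 2-fold.

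The shared region with the largest ratio lay on chromosome 6 from 133776012 to 133801316, between Mir370 and Mir379, whose mature forms are printed above. Mir370 lay 36017 bases away and Mir379 56383 bases. These microRNAs belong to the imprinted Dlk1-Dio3 domain, in which long noncoding RNAs from the maternal chromosome hold small nucleolar RNAs and microRNAs. The region had 2595, 2837 and 379 FPKM in SCPs and 30.6, 32.5 and 15.3 in RSCs, a log2 ratio of -6.16. These sums took in 28 transcripts over the 6 samples, 121 to 1981 bases long. Short transcripts thus enter the values, and their part was not tested. The groups did not overlap, although SCP 3 was far below the other SCP samples. It was spliced in 5 samples, and GRCr8 places 84 small nucleolar RNA genes and 43 pseudogenes between the same microRNAs. Dlk1, the paternally expressed gene of the domain, moved the same way, with 95.4, 113 and 200 FPKM in SCPs and 4.44, 5.68 and 4.11 in RSCs (log2 fold change -4.51, standard error 0.29, adjusted p = 0.00013).

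Another imprinted gene, Peg10, had a shared region 2159 bases from it on chromosome 4. It had 158, 155 and 129 FPKM in SCPs and 28.5 and 16.8 in RSC 2 and 3. Peg10 itself had 8.6, 20.9 and 29.6 FPKM in SCPs and 0.852, 2.93 and 1.56 in RSCs (log2 fold change -2.81, standard error 0.50, adjusted p = 0.0056). In the SCP samples the region thus had a higher FPKM than the named transcripts of Peg10. The value of Peg10 leaves out unnamed transcripts that overlap it, so whether the whole gene was lower was not tested.

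In the other direction the largest ratio among regions held by all 6 samples lay beside Hspa1l on chromosome 20, from 4955867 to 4956579. Hspa1l and its near-identical relatives Hspa1a and Hspa1b encode heat shock proteins of the 70 kDa class. The region had 143, 248 and 233 FPKM in SCPs and 2053, 2171 and 2261 in RSCs, a log2 ratio of 3.37. Hspa1a had 196, 269 and 248 FPKM in SCPs and 2578, 2599 and 2726 in RSCs, without overlap (limma, log2 fold change 3.48, adjusted p = 2.5e-05). Reads of such copies can be shared, so the value of the region is uncertain.

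A region 9023 bases from Frmd8, a membrane adaptor, came next on chromosome 1 from 221200995 to 221204288. It had 12, 15.7 and 9.29 FPKM in SCPs and 94.9, 77.0 and 88.1 in RSCs, a log2 ratio of 2.72 with no overlap. Frmd8 changed less (102, 97.5 and 106 against 129, 124 and 136 FPKM, log2 fold change 0.35, adjusted p = 0.0098).

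Regions beside Cadm4 and Fosl2 moved in the same direction as their gene. A region 469 bases from Cadm4, an adhesion protein by which Schwann cells bind axons, had 34.5, 66.0 and 54.7 FPKM in SCPs and 225, 243 and 206 in RSCs. Cadm4 had 109, 119 and 164 FPKM in SCPs and 486, 618 and 541 in RSCs (log2 fold change 2.08, standard error 0.18, adjusted p = 0.00033). A region 221 bases from Fosl2, an AP-1 transcription factor, had 5.48, 9.52 and 21.1 FPKM in SCPs and 56.5, 46.6 and 49.1 in RSCs. Fosl2 had 1.90, 4.92 and 3.56 FPKM in SCPs and 54.5, 46.6 and 47.9 in RSCs (log2 fold change 3.56, standard error 0.27, adjusted p = 0.00023).

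Some strong ratios ran against the nearest gene. A 192-base region 54437 bases from Smox, a spermine oxidase, had 2364, 1897 and 1317 FPKM in SCPs and 417, 486 and 504 in RSCs, while Smox was higher in RSCs (11.5, 15.9 and 19.6 against 35.7, 41.6 and 38.4 FPKM, adjusted p = 0.0032 by limma). The second longest region, 132858 bases on chromosome 13 from 85110096 to 85242953, was spliced in 3 samples. It had 93.4, 47.2 and 46.7 FPKM in RSCs and 10.2 in SCP 2 alone. Its nearest gene, Uck2, lay 133762 bases away and was higher in SCPs (log2 fold change -1.03, adjusted p = 0.0043 by limma). The longest, 262409 bases on chromosome 17, had 5.13, 4.95 and 5.42 FPKM in SCPs and 8.40 in RSC 3.

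The remaining regions beside microRNAs had lower or scattered values and were singled out for their neighbours after the values were seen. A region 6 bases from Mirlet7d had 166 and 11.8 FPKM in SCP 1 and 2 and 7.81 in RSC 1. SCP 1 was thus the single high sample, and 3 samples had no transcript there. An SCP only region 35 bases from Mirlet7i had 7.50 and 9.91 FPKM in SCP 1 and 2. The shared region 9 bases from Mir22 had 4.45, 4.54 and 13 FPKM in SCPs and 9.63 and 37.2 in RSC 1 and 2, so that the groups overlapped. The RSC only region 48 bases from Mir6326 had 6.0, 8.38 and 5.63 FPKM, and an SCP only region between LOC102547322 and Mir384 had 3.26, 3.15 and 9.74 FPKM.

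Between Csnk1a1, a casein kinase, and Mir145, a microRNA of smooth muscle, a shared region of 7826 bases on chromosome 18 was spliced in 4 samples. The region lay 1893 bases from Csnk1a1 and 49577 bases from Mir145. It had 64.5, 111 and 111 FPKM in SCPs and 23.5, 23.9 and 90.7 in RSCs, so that RSC 3 lay among the SCP values. GRCr8 names Carmn, the long noncoding host RNA of this microRNA, in the interval, together with a ribosomal protein pseudogene. A region 1820 bases from Mir196a in the Hoxc cluster had 7.25, 23.5 and 19.4 FPKM in SCPs and 6.78, 19.9 and 6.61 in RSCs, with overlap of the groups.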

How the data were processed

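RNA from 3 SCP and 3 RSC samples was sequenced by the authors and aligned to the rn6 rat genome. The submitters' processing notes name FastQC 0.11.2, TopHat2 2.1.0 and Cufflinks 2.2.1. The authors deposited 1 Cufflinks table per sample, which gives the FPKM of every transcript, its length and its coverage, a signal used here only for relative depth. The tables hold no counts and no strand, so depth in reads is unknown and no counting error can be given.

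Unnamed rows of at least 1 FPKM that overlapped no named row were merged across samples and classed as described in the report, and FPKM were summed per region and sample. Positions count from 1. A gene's FPKM is the sum of its named rows, and 77 rows per table whose symbols a spreadsheet had turned into dates are not named. Genes were compared with limma 3.58.1 (R 4.3.3, variance trend, no block) on log2(FPKM + 1), RSC minus SCP, over the 13003 genes whose mean reached 1 FPKM, called at an unadjusted p under 0.01. Adjusted p-values are by Benjamini and Hochberg across these genes. On simulated data the interval and gene steps returned the built-in answers. Flanking genes were looked up by symbol in RefSeq (GRCr8), where 72.7% of 29468 symbols matched, and only the order of genes was used. Tables were handled with Python 3.11.15, pandas 2.3.3 and scipy 1.17.1.

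Regions named singly are the 6 with the highest mean per class, the 4 with the largest ratio each way among shared regions held by all 6 samples, the lowest of each class, up to 2 per gene list and class, the 3 longest and the 3 farthest. Genes named are their nearest genes and the 4 with the largest change each way per class. Regions beside microRNAs, Rel, Zbtb20, Il6, Cntf, Lrp11 and Peg10, between Csnk1a1 and Mir145, and beside single Hoxc genes were chosen outside this after their values were seen. The members and the lists were chosen with earlier results of these data known. Some items that this rule and the marker lists name are not reported here. Alternatives were other FPKM minimums, sample numbers, merging distances, distances from named genes, scalings, filters, pseudocounts, call rules and leaving out each sample.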

Additional observations from a re-analysis of the deposited data

How the results depend on the processing

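The depth in reads is unknown, a transcript of under 1 FPKM was almost never listed outside named genes, and regions held by fewer samples of a group are classed less surely. Of 228 values recomputed under 30 settings, 164 stayed within the error or count limits and 64 moved. No single value changed sign, but SCPs no longer led in summed FPKM without transcripts under 300 bases, nor in regions over 4-fold without RSC 2, as given below. The share of nearest genes in the class direction was above that of all genes tested in every setting run, but only slightly beyond 10 kb. There it was 23.1% (6 of 26) and 21.4% (3 of 14), against 22.4% and 18.1% of all genes tested. With no named row within 10 kb it was 23.3% (7 of 30) and 20% (3 of 15). It fell to 8.71% and 21.8% where a log2 fold change over 2 was also required (3.78% and 7.81% of all genes tested). The cause of the moves was not tested except where fewer samples, rows or genes entered by construction.

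With a minimum of 5 FPKM there were 358 SCP only regions, the median log2 ratio of shared regions was -0.021 and 20 shared regions exceeded 4-fold toward SCPs. Requiring all 3 samples of a group gave 243 SCP only and 105 RSC only regions, with 85.7% of the latter within 10 kb of a gene and a median log2 ratio of -0.14. Accepting 1 sample gave 1410 and 658 regions, with 31.3% and 30.7% of nearest genes in the class direction. Merging loci up to 1 kb apart gave 51 regions over 4-fold toward SCPs. Requiring no named row within 1 kb left 160 RSC only and 407 shared regions, 32.6% of nearest genes for SCP only regions, 83.4%, 84.4% and 84.8% of SCP only, RSC only and shared regions within 10 kb, and 19 shared regions over 4-fold toward SCPs. Requiring none within 10 kb left 71 SCP only, 26 RSC only and 69 shared regions, by construction 0 within 10 kb, a mean sum of 23116 FPKM in RSCs, 23.3% and 20% of nearest genes, a median log2 ratio of -0.18, and 2 and 6 regions over 4-fold toward RSCs and SCPs. A pseudocount of 0.1 gave 37 regions over 4-fold toward RSCs.

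For genes nearest to SCP only regions the share in the class direction was 32.6% with no filter, 50% at a mean of at least 5 FPKM, 31.1% after median-of-ratios scaling and 28.4% at an adjusted p under 0.01 (16.8%, 27.4%, 16.8% and 16.6% of all genes tested), and it was 32.6% with both flanking genes, and 23.1% (SCP only) and 21.4% (RSC only) beyond 10 kb. With the replicate block it was 32.3% for SCP only and 33.3% for RSC only regions, with 17.3% and 15.6% over all genes. Over the named genes, samples with the same number did not deviate together (correlations of 0.04, -0.0049 and 0.03). In the sums over transcripts under 150 bases, SCP 1 and RSC 1 were each the highest of their group. Whether equal numbers mark a shared preparation was not tested.

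Settings added after seeing the data left out transcripts under 300 bases, giving mean sums of 11565 (SCPs) and 11696 FPKM (RSCs) in place of 83869 and 39034, a median log2 ratio of -0.057 and 21 regions over 4-fold toward SCPs. With no unnamed row of any kind in the other group, 162 RSC only regions were left with 50% of their nearest genes in the class direction, a setting that by construction drops genes with unnamed transcripts in SCPs, and with unnamed rows added to genes the shares were 58.4% and 50.2%.

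Leaving out 1 sample at a time gave 329 to 634 SCP only and 160 to 311 RSC only regions, 28.8% to 35.3% of genes nearest to SCP only regions in the class direction, median log2 ratios of -0.17 to -0.053, and 21 to 35 regions over 4-fold toward SCPs against 16 to 25 toward RSCs. Without RSC 2 there were 24 toward SCPs and 25 toward RSCs.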
